A study of Mus musculus with 36 samples.

Results

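The genes described here belong by name to families of conjugating and detoxifying enzymes outside the cytochrome P450 family, and were measured along the mouse intestine. They were taken by name, as every gene whose annotated symbol begins with Gsta, Gstm, Gstp, Gstt, Gstk, Gsto, Ugt1, Ugt2, Sult, Adh, Aldh, Akr1, Ephx or Ces followed by a number or letter. This rule was set with earlier results of these data known, so shares against all genes are descriptive. This gave 89 genes of the 15964 with a symbol of their own on the arrays, each represented by its brightest probe set on the first array set that carried it (52 genes on set A, 27 on B and 10 on C). Grouped by symbol alone, they comprise 6 alcohol dehydrogenases, 19 aldehyde dehydrogenases, 13 aldo-keto reductases of family 1, 10 carboxylesterases and 3 epoxide hydrolases. The others are 20 glutathione S-transferases, 6 UDP-glucuronosyltransferases and 12 sulfotransferases. The rule did not check what each enzyme does, so single genes can have another role than their family name says. A further 4 probe sets of these families carried several symbols and were not counted.

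The tissue came from male Hsd:ICR(CD-1) mice, an outbred stock, which were 8 weeks old, untreated and fed standard chow. All 4 groups share this stock, sex, age and diet, and by their labels the groups differ only in the segment. The upper segments are duodenum (the first piece after the stomach) and jejunum (the middle of the small intestine). The lower segments are ileum (the piece that ends at the junction with the caecum) and colon (taken whole). Control signals of the arrays also varied between segments and are given below. Each group held 3 samples, each a pool of 10 mice, and total RNA of the full thickness of each segment was hybridised to 3 arrays (sets A, B and C), so values are averages over many cell types and many animals. In such bulk samples, fewer cells of a type and less RNA per cell cannot be told apart, and the p-values below measure the spread between pools.

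Enzymes of the first phase expose or create reactive groups: alcohol and aldehyde dehydrogenases oxidise alcohols and aldehydes, aldo-keto reductases reduce carbonyls, carboxylesterases cleave esters, and epoxide hydrolases open epoxides. Enzymes of the second phase attach a polar group, namely glutathione (glutathione S-transferases), glucuronic acid (UDP-glucuronosyltransferases) or sulfate (sulfotransferases), which makes the product easier to export. In the gut these enzymes act on food chemicals and drugs during absorption, and several also handle retinoids, steroids, bile acids and fatty acid epoxides of the body itself.

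The median intensity of an array, a measure of its signal, was 48.6 to 75.3 for set A, 85.8 to 110.5 for set B and 85.9 to 104.9 for set C. Within a segment, pools correlated at 0.932 to 0.970, 0.859 to 0.915 and 0.817 to 0.904 across probe sets, which are not independent of each other. The control signal for 18S ribosomal RNA on set A was 39.8 to 444.7 in jejunum pools 2 and 3 and ileum pools 1 and 3, and 1980.0 to 8402.2 in the other 8 samples. The 3' to 5' signal ratio of actin, a measure of RNA integrity, was 1.14 to 1.2 in ileum, 1.28 to 1.55 in jejunum, 1.41 to 1.84 in duodenum and 1.3 to 1.43 in colon on set A. The summed intensity of 9 epithelial markers was 41900 to 61160 across all samples. The sum of 7 small-intestinal enterocyte markers was 74350 to 112000 in duodenum, 70530 to 79410 in jejunum, 49010 to 67850 in ileum and 6877 to 7598 in colon. That of 8 smooth muscle markers was 4757 to 5634, 5134 to 7953, 8936 to 10820 and 25200 to 29190 in the same order. That of 6 B and plasma cell markers was 3318 to 4436, 1383 to 2270, 3598 to 4021 and 1648 to 2145. The sum of 8 exocrine pancreas markers was 108200 to 112000 in duodenum and 710.1 to 2645 elsewhere, and that of 7 stomach markers was 21590 to 34730 in duodenum and at most 1190 elsewhere. All 10 liver markers together reached 346.5 to 823.1 in every segment, and 0 of them passed limma's adjusted test in any comparison (at most 2 in a comparison at an unadjusted p below 0.05).

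As a group these enzymes were brighter than the typical gene. The mean intensity had a median of 251 over the 89 genes, against 121 over all genes. In 71 genes the mean of the highest segment lay above the median of its array set, and in the other 18 it did not. Of the 89 genes, 43 differed among the 4 segments (limma F test with Benjamini-Hochberg adjustment over all genes of the 3 sets, adjusted p below 0.05). This is 48.3% of them, against 13.7% of all genes. Among these 43, the highest mean was in duodenum for 20 genes, in jejunum for 15, in colon for 6 and in ileum for 2. Among all genes with such a difference, the shares were 12.5% for duodenum, 26.6% for jejunum, 46.7% for colon and 14.2% for ileum.

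**Figure D1:**
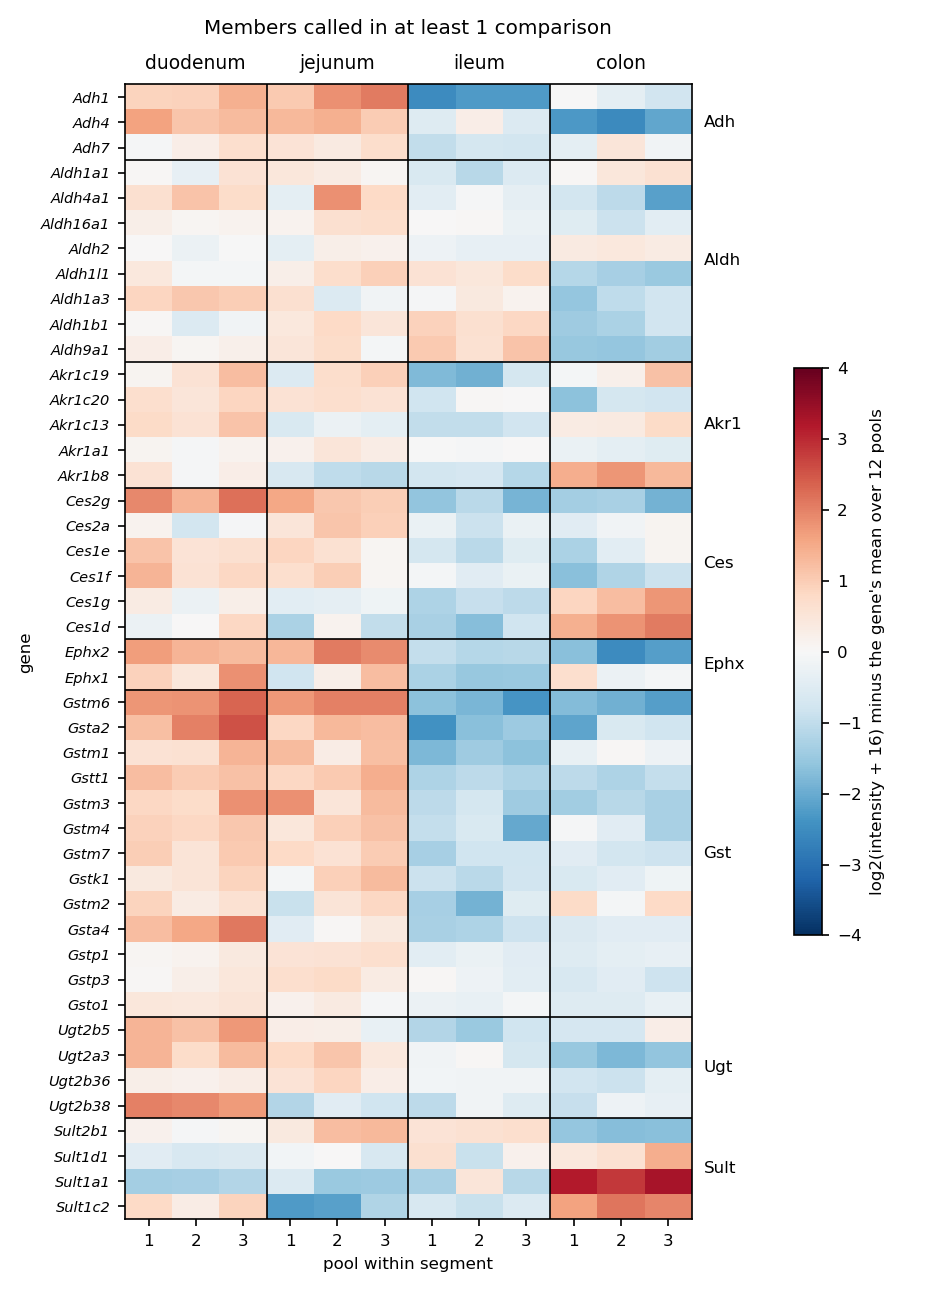
Heat map of the 45 genes that passed the test in at least 1 comparison between segments or in the test of any difference, in 12 columns for the 3 pools of each segment, with colour for log2(intensity + 16) minus the gene's mean over the 12 pools. The ileum columns are blue for most genes of the Adh, Ces, Ephx and Gst families, and Sult1a1 and Sult1c2 are red in colon.

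Calls between the ileum and the rest of the small intestine were nearly all falls. From jejunum to ileum 20 genes fell and 0 rose (22.5% of the 89 called, against 4.48% of all genes, of which 2.46% rose and 2.02% fell). At an unadjusted limma p below 0.05, 38 genes were lower and 3 higher. The highest difference among the 89 genes was 1.18 on the log2(intensity + 16) scale, that of Sult1c2, with an adjusted p of 0.154. The median difference over the 89 genes was -0.30, against 0.08 over all genes. From duodenum to ileum 26 genes fell and 1 rose, 30.3% of the 89, against 2.99% of all genes, of which 1.43% rose and 1.55% fell. Of the 20 genes lower in ileum than in jejunum, 17 were also lower than in duodenum, and 18 passed no test between duodenum and jejunum. Glutathione S-transferases made up 10 of the 20, and 0 of the 12 sulfotransferases were among them (2 rose and 0 fell at an unadjusted limma p below 0.05). With 2.02% of all genes lower, 0 of 12 does not set the sulfotransferases apart from all genes. In only 7 of these 12 did the highest segment mean exceed the median of the array set.

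Markers of several cell types moved between the same segments. The summed enterocyte markers were lower in ileum than in jejunum (49010 to 67850 against 70530 to 79410), with 3 of 7 called lower and 1 higher. The median log2 difference of the 7 was -0.08, and a sum is led by its brightest genes. The summed smooth muscle markers were higher (8936 to 10820 against 5134 to 7953, 2 of 8 called higher), as were those of B and plasma cells (3598 to 4021 against 1383 to 2270, 3 of 6 called higher), and the ileum and jejunum pools did not overlap in any of these 3 sums. The summed epithelial markers were also higher in ileum without overlap (55740 to 61160 against 44340 to 55040 in jejunum). Of these 9 markers, 0 passed limma's adjusted test (3 were higher at an unadjusted p below 0.05). The part of these shifts in the falls described here was not tested.

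Within the 4 pools of low 18S signal, the 20 genes differed between ileum and jejunum by a median of -1.98, and within the pools of high 18S signal by -1.59. All 20 were below 0 in both, but they were picked for their fall over these same pools. The signs within the classes are therefore no separate evidence of the falls. The high class holds only jejunum pool 1 and ileum pool 2, so with the 8 high-signal samples alone 5 genes passed the test, namely Adh1, Ephx2, Gstm1, Gstm6 and Gstt1. A fit blocked by 18S class called 22 genes from jejunum to ileum. All duodenum and colon pools were in the high class, and ileum pools 1 and 3 were in the low class. Comparisons of ileum with duodenum or colon are therefore partly comparisons of 18S class too, and calls lost under this block are given below.

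**Figure D2:**
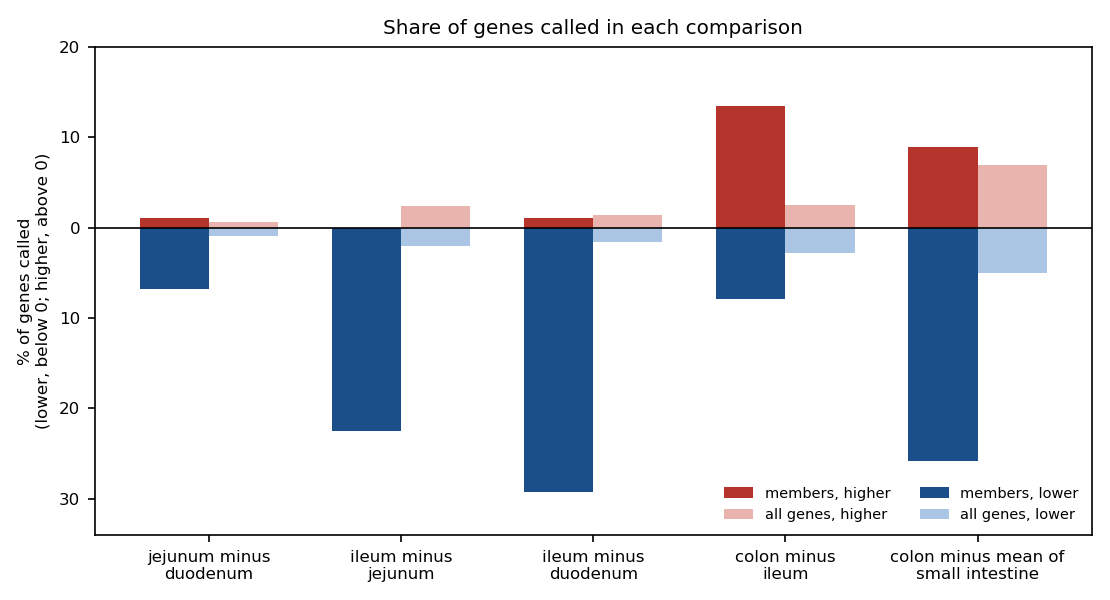
Percentage of genes called in each comparison, with rises drawn above 0 and falls below 0, for the 89 enzyme genes (dark bars) and all 15964 genes (pale bars). Falls in ileum and in colon take larger shares of the enzyme genes than of all genes.

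Adh1, the class I alcohol dehydrogenase that oxidises ethanol and retinol, was the brightest of its family. Its intensity was 4413.2, 4557.5 and 6430.9 in the duodenum pools, 4980.9, 8591.8 and 10103.6 in jejunum, 402.9, 483 and 477.9 in ileum, and 2363.3, 1813.5 and 1406.5 in colon. The ileum pools lay below all others, the colon pools lay between, and duodenum and jejunum overlapped. Adh1 fell by 4.01 ± 0.25 (SE) on the log2 scale from jejunum to ileum (limma adjusted p = 6.63e-07) and was 1.97 ± 0.25 higher in colon than in ileum (adjusted p = 0.000157). Against the mean of the small intestine, colon differed by -0.51, which did not pass the test (adjusted p = 0.174).

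Adh4, the class II alcohol dehydrogenase, fell in steps. It measured 560.8, 391.3 and 439 in duodenum, 439.7, 490.3 and 363.5 in jejunum, 113.8, 207.4 and 112.5 in ileum, and 22, 16 and 28.5 in colon. Jejunum and ileum did not overlap, nor did ileum and colon. The log2 difference was -1.52 ± 0.254 from jejunum to ileum (adjusted p = 0.00416) and -2.04 ± 0.254 from ileum to colon (adjusted p = 0.000131). A second Adh4 probe set fell as well, from a mean of 268.6 in jejunum to 80.87 in ileum and 5.3 in colon. Adh7, the class IV enzyme known for retinol oxidation, was the other alcohol dehydrogenase that fell from jejunum to ileum (mean 331 ± 41 to 121.6 ± 14.4, SD, n = 3). Adh5, the class III enzyme that handles formaldehyde bound to glutathione, had means of 460.3 to 710 and passed no test.

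Ephx2, the soluble epoxide hydrolase that converts fatty acid epoxides to diols, was likewise lower in ileum and colon. Its intensity was 2069.8, 1643.4 and 1545.3 in duodenum and 1638, 2755.5 and 2384.7 in jejunum. The ileum pools measured 319.6, 279.5 and 287.9 and the colon pools 187.3, 98.3 and 127.2. The upper segments overlapped and both lower segments lay below them without overlap. Ephx2 fell by 2.84 ± 0.225 from jejunum to ileum (adjusted p = 4.53e-06). A further fall of 1.06 from ileum to colon had an adjusted p of 0.0141. Leaving out ileum pool 1, colon pool 2 or colon pool 3 ended that call, as did blocking by 18S class. Ephx1, the microsomal epoxide hydrolase, had means of 241.6 ± 129, 138.9 ± 104, 26.43 ± 4.14 and 110.9 ± 44.6 (SD, n = 3) from duodenum to colon. It was lower in ileum than in duodenum (log2 -2.49, adjusted p = 0.00814), a call that ended without duodenum pool 3.

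Among the carboxylesterases, which cleave esters of drugs and lipids, Ces2g and Ces2a fell from jejunum to ileum. Ces2g measured 1344.1, 891.5 and 1623.3 in duodenum and 1015.6, 736.7 and 686 in jejunum, then 104, 151.2 and 81.4 in ileum and 122, 129.7 and 79.8 in colon. Its ileum and colon pools overlapped each other and lay far below both upper segments. The log2 difference from jejunum to ileum was -2.71 ± 0.263 (adjusted p = 3.54e-05). Ces2a, the brightest carboxylesterase, peaked in jejunum with a mean of 10140 ± 2180, against 4957 ± 1460 in duodenum, 4137 ± 930 in ileum and 5043 ± 998 in colon (SD, n = 3). Its fall to the ileum (log2 -1.29, adjusted p = 0.0126) was no longer called without jejunum pool 2 or 3.

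Of the 20 glutathione S-transferases, 10 were lower in ileum than in jejunum, 11 lower than in duodenum and 0 higher in either comparison. Over all genes, 2.02% fell from jejunum to ileum and 1.55% from duodenum to ileum. The 10 came from the alpha, mu, pi, theta and kappa classes. The 11 included Gsto1 of the omega class and no gene of the pi class. At an unadjusted limma p below 0.05, 15 of the 20 were lower than in jejunum, 13 lower than in duodenum and again 0 higher. The median difference of the 20 from jejunum to ileum was -1.05. Gstm6, of the mu class, measured 356.2, 358.1 and 532.6 in duodenum and 343.2, 419.6 and 423 in jejunum. In ileum its intensity was 18.9, 14.5 and 5.3, and in colon 16.4, 12.9 and 7.6. The lower segments lay below the set A median of 66.3 in every pool, and did not overlap with the upper segments. The log2 difference of -3.85 ± 0.281 (adjusted p = 2.34e-06) is on the log2(intensity + 16) scale and is compressed for values this low. The other Gstm6 probe set fell from a mean of 246.7 to 20.2.

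Gstt1, of the theta class, varied little between pools. It measured 1014.9, 885.9 and 987.1 in duodenum, 772.9, 896.6 and 1186.5 in jejunum, 170.3, 199.1 and 173.1 in ileum, and 196.1, 170.9 and 210.8 in colon. It fell by 2.28 ± 0.176 from jejunum to ileum (adjusted p = 3.93e-06), and colon differed from ileum by 0.08 (adjusted p = 0.941). Gsta2, of the alpha class, had means of 598.6 ± 267 and 317.5 ± 54.9 in duodenum and jejunum, and of 27.97 ± 14.1 and 58.2 ± 34.2 in ileum and colon (SD, n = 3), a log2 difference of -2.97 from jejunum to ileum (adjusted p = 0.00101). Gstm3 and Gstm4 fell by 2.26 and 2.06 (adjusted p = 0.0012 and 0.00681). Gstp1, the pi-class enzyme and with Gstm1 the brightest of the family, fell by 0.99 from a jejunal mean of 11410 ± 465 to 5763 ± 411 (adjusted p = 0.00207).

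Gstm1, the brightest mu-class gene, was low in ileum and intermediate in colon. Its pools measured 8568.9, 8734.9 and 14517.5 in duodenum, 13791, 6962.5 and 13108.9 in jejunum, 1640.6, 2093.4 and 1809 in ileum, and 4631, 5841.7 and 4910.6 in colon. The colon pools lay above the ileum pools and below both upper segments. Gstm1 fell by 2.54 ± 0.258 from jejunum to ileum (adjusted p = 5.71e-05) and was 1.46 ± 0.258 higher in colon than in ileum (adjusted p = 0.00332). Of its 4 other probe sets, 1 passed the test from jejunum to ileum (log2 -1.92), and 0 passed from ileum to colon. Probe sets of the mu class can bind transcripts of relatives, so the share of each gene is uncertain. Over all 20 genes lower in ileum than in jejunum, 5 had further probe sets, 8 in all, of which 4 were called lower and 0 higher.

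**Figure D3:**
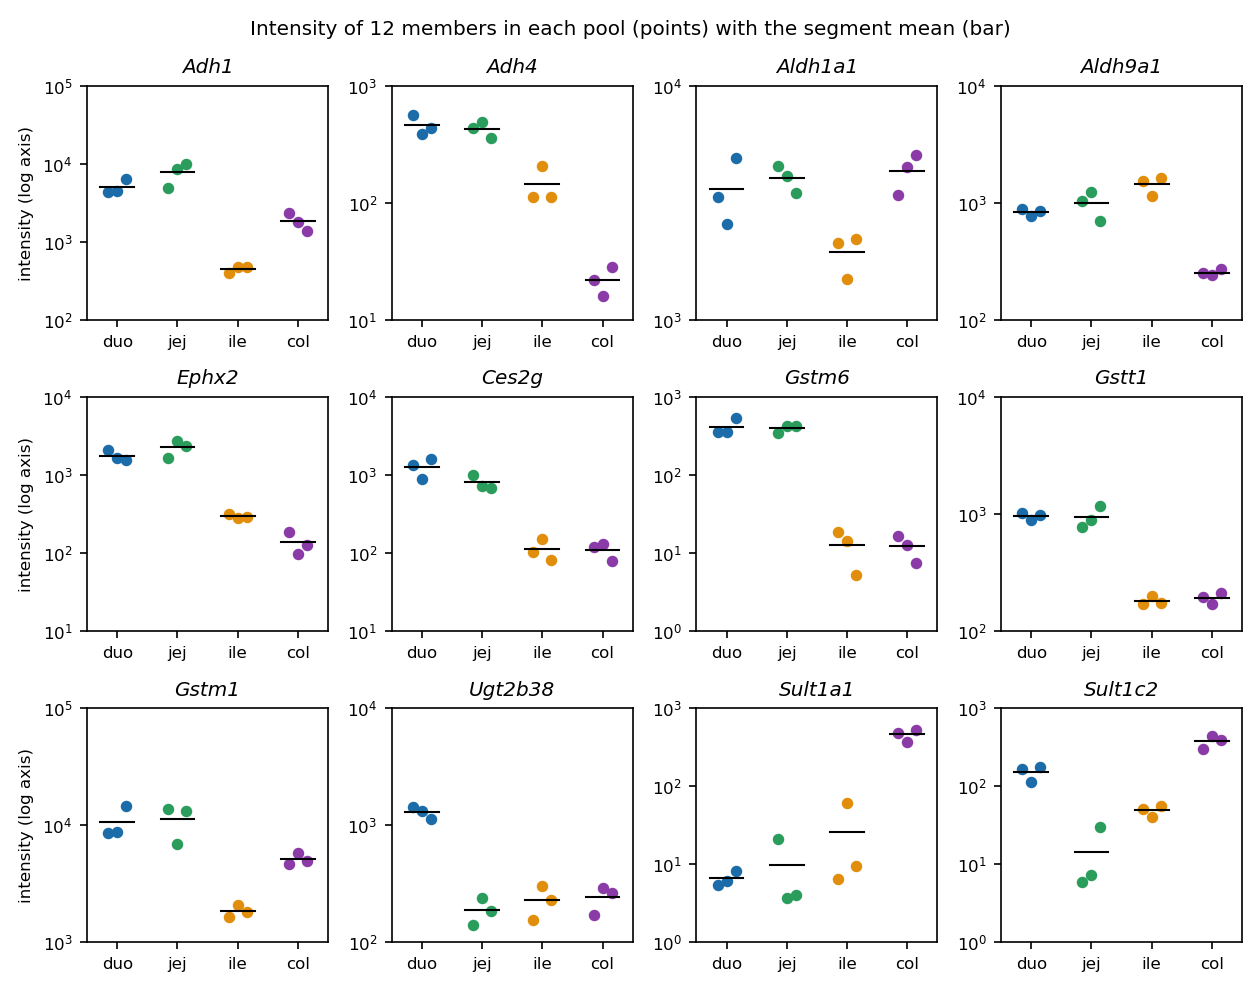
Intensity on a log axis in each pool (points) and the segment mean (bar) for 12 of the genes in duodenum (duo), jejunum (jej), ileum (ile) and colon (col). Adh1 and Gstm1 are lowest in ileum, Gstm6, Gstt1 and Ces2g are low in both ileum and colon, Aldh9a1 is low in colon only, and Sult1a1 and Sult1c2 are highest in colon.

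Promoters are shown for the 3 genes with the largest fall from jejunum to ileum, and for the gene with the largest rise from ileum to colon, among those with a single start in the RefSeq promoter table of build GRCm38.p6. Each window holds 250 bases before and 50 after the start of the gene, 5′ to 3′ on the gene's strand. Capitals mark matches on either strand to any of 3 motifs. The first is AGATAA, a site for GATA factors. The second is GTTAAT, which is known as a half-site of HNF1. The third is TGACNNNGC, the core of the antioxidant response element, to which Nfe2l2 binds. The windows are Adh1 at chr3:138277335-138277634 (+ strand), Gsta2 at chr9:78347096-78347395 (- strand), Ces2g at chr8:104961468-104961767 (+ strand) and Sult1a1 at chr7:126676369-126676668 (- strand).
Adh1: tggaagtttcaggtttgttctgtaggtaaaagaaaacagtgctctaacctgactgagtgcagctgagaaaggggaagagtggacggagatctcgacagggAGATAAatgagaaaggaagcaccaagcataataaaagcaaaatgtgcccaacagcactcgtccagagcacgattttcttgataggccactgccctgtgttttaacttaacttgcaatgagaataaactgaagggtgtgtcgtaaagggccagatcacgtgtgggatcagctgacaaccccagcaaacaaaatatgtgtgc
Gsta2: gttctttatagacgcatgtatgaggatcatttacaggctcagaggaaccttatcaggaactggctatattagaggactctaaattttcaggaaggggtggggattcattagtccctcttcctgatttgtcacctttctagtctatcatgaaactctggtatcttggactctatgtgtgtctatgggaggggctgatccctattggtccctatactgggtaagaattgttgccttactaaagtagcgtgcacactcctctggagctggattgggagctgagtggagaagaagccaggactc
Ces2g: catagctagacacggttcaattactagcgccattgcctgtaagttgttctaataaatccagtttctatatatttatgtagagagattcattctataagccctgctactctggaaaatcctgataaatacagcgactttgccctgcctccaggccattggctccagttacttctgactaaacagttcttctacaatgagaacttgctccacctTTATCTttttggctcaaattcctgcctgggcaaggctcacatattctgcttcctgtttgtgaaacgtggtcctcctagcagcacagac
Sult1a1: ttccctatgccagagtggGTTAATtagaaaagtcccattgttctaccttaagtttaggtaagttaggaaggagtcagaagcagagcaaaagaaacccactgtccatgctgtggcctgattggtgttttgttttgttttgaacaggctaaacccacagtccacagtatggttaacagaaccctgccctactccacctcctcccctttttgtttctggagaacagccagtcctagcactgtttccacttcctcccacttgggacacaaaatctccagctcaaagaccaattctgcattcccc
Of the 89 genes, 72 matched the promoter table, with 85 windows. AGATAA was found in 17 of these 85 windows and in 11.2% of all 32851 windows of this length. The share of windows with GTTAAT was 9.41% for these genes and 7.1% over all windows. For TGACNNNGC it was 8.24% and 12.4%. Among the 18 matched genes lower in ileum than in jejunum, 7 held AGATAA (Adh1, Akr1c19, Aldh1a1, Ces2g, Gstk1, Gstm7 and Ugt2a3), 2 held TGACNNNGC (Akr1c19 and Gstm7) and 1 held GTTAAT (Ugt2a3). Counted by window, as the shares above are, these were 7, 2 and 1 of 24 windows. Adh1 and Ces2g thus share the AGATAA letters, Gsta2 holds none of the 3 motifs in its window, and Sult1a1 holds GTTAAT.

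Between the upper segments these enzymes differed in fewer genes. From duodenum to jejunum 6 genes fell and 1 rose (7.87% of the 89 called, against 1.5% of all genes, of which 0.639% rose and 0.858% fell). With arrays centred on their medians the calls were 4 falls and 0 rises, and with quantile normalization 6 falls and 0 rises. Exocrine pancreas and stomach markers were high in the same 3 duodenum pools, as given above, and their part in these differences was not tested. From duodenum to ileum, all 8 pancreas markers and 3 of 7 stomach markers were called lower, against 1.55% of all genes. The part of these markers in the other differences that involve duodenum was not tested either.

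Ugt2b38, a UDP-glucuronosyltransferase of the subfamily that conjugates steroids, was the most duodenal. It measured 1417.9, 1322 and 1137.5 in duodenum and 140.5, 241.4 and 186.4 in jejunum, with 154.8, 305.7 and 231.8 in ileum and 172.5, 291.3 and 264.4 in colon. The duodenum pools lay above all 9 others, which overlapped. The log2 difference from duodenum to jejunum was -2.69 ± 0.325 (adjusted p = 0.000634). Its other probe set fell from a mean of 719.3 to 6.133. Gsta4, an alpha-class transferase known for the lipid aldehyde hydroxynonenal, fell from 806.5 ± 255 to 247.6 ± 73.4 (log2 -1.64, adjusted p = 0.00323), and Akr1c13, a ketone and steroid reductase, from 2967 ± 604 to 1235 ± 171 (log2 -1.24, adjusted p = 0.00169).

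Sult1c2, a sulfotransferase of the 1C subfamily, was high at both ends of the intestine. Its intensity was 166.3, 112.6 and 178.1 in duodenum, 5.9, 7.2 and 29.7 in jejunum, 51.4, 40 and 55.8 in ileum, and 302.9, 440.8 and 386.2 in colon. No neighbouring segments overlapped. The difference was -2.54 ± 0.4 from duodenum to jejunum (adjusted p = 0.0032) and 2.59 ± 0.4 from ileum to colon (adjusted p = 0.000877). The remaining falls from duodenum to jejunum were those of Ugt2b5 (log2 -1.35, adjusted p = 0.0252) and Akr1b8 (log2 -1.19, adjusted p = 0.0104). The rise was that of Sult2b1 (log2 0.90, adjusted p = 0.0485). Leaving out duodenum pool 1 or jejunum pool 3 ended all of these last 3 calls, as did blocking by 18S class. That of Ugt2b5 also ended without duodenum pool 2 or 3 or jejunum pool 2, and that of Sult2b1 without any single sample other than jejunum pool 1.

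The 6 UDP-glucuronosyltransferases with a symbol of their own belong to the Ugt2 subfamilies, and 5 of them had their highest mean in duodenum. Ugt2a3, the brightest, had means of 1238 ± 279, 973.2 ± 239, 462.7 ± 120 and 166.6 ± 18.6 (SD, n = 3) from duodenum to colon and was lower in colon than in the small intestine (log2 -2.18 ± 0.211, adjusted p = 3.28e-06). Its fall from jejunum to ileum (log2 -1.05, adjusted p = 0.0396) ended when any of 8 single samples was left out, among them ileum pools 1 and 3 and jejunum pools 1 and 2. A probe set shared by 8 Ugt1a symbols, which cannot be assigned to 1 gene, measured 6709.4, 8577.3 and 10146.3 in duodenum, 8426.3, 6157.8 and 5027.1 in jejunum, 2493, 3583.3 and 2562.8 in ileum, and 5986.4, 7634 and 6162.8 in colon. It was lowest in ileum in all pools, with a difference of -1.17 from jejunum (adjusted p = 0.00978) and a rise of 1.20 to colon (adjusted p = 0.00462).

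From ileum to colon 12 genes rose and 7 fell (21.3% of the 89 called, against 5.22% of all genes, of which 2.49% rose and 2.74% fell). Compared with the small intestine (the mean of its 3 segments), 8 genes were higher in colon and 23 lower (34.8% called, against 11.9% of all genes, of which 6.92% were higher and 4.96% lower). Of the 20 genes that were lower in ileum than in jejunum, 4 rose again in colon (Adh1, Akr1c19, Aldh1a1 and Gstm1), 3 fell further (Adh4, Ephx2 and Ugt2a3) and 13 passed no test from ileum to colon. Another 13 genes were lower in colon than in the small intestine with no call between jejunum and ileum. The number of genes higher in colon than in the small intestine was 5 with arrays centred on their medians (with 26 lower) and also 5 without colon pool 3, and the rises from ileum to colon numbered 7 with the lower middle probe set of each gene. The summed enterocyte markers were lower and the summed smooth muscle markers higher in colon than in every other segment, as given above. Of the enterocyte markers 6 of 7 were lower in colon than in ileum, and Sis was not (means of 2844 and 2823). All 8 smooth muscle markers were higher in colon than in the small intestine. The part of these markers in the differences was not tested.

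Sult1a1, the phenol sulfotransferase, had the largest rise. It measured 5.5, 6.1 and 8.2 in duodenum, 21.3, 3.7 and 4.1 in jejunum, 6.4, 61.2 and 9.5 in ileum, and 482.2, 372.1 and 521.8 in colon. All small-intestinal pools lay below the set A median, and the colon pools lay far above them. The log2 difference from ileum to colon was 3.73 ± 0.433 (adjusted p = 6e-05). Its second probe set was near 2 units in every segment (means of 1.867 to 2.533) and showed no rise, with a difference of -0.02 (adjusted p = 0.984).

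Of the carboxylesterases, Ces1d and Ces1g, both of the Ces1 group that hydrolyses lipid esters, were highest in colon. Ces1d measured 46.4, 59 and 113.3 in duodenum, 14.3, 65.6 and 21.1 in jejunum, 13.8, 6.7 and 26.3 in ileum, and 179.8, 240.6 and 295.5 in colon. The colon pools did not overlap with any other segment, and Ces1d rose by 3.03 ± 0.416 from ileum (adjusted p = 0.000344). Of its 2 other probe sets, 1 rose (log2 2.78) and 1, on array set C, did not (log2 0.05). Ces1g rose by 2.35 ± 0.247 (adjusted p = 2.1e-05), from a mean of 75.53 ± 9.55 to 466.3 ± 154 (SD, n = 3), and its second, brighter probe set rose by 1.29. Ces1f, a further member of the Ces1 group, went the other way and was lower in colon than in the small intestine (log2 -1.66, adjusted p = 8.37e-05).

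Akr1b8, a reductase of aldehydes close to aldose reductase, measured 642.3, 403 and 507.7 in duodenum, 262.4, 199.7 and 184.8 in jejunum, 245.7, 258.4 and 183.7 in ileum, and 1166.7, 1471.3 and 1065 in colon. Jejunum and ileum overlapped, and the colon pools were above all others. The rise from ileum was 2.35 ± 0.21 (adjusted p = 3.79e-06). Akr1c13 rose by 1.41 ± 0.179 from ileum to colon (adjusted p = 0.000154) to a mean of 2322 ± 418, which overlapped with duodenum. Akr1c19 and Gstm2 rose by 1.89 and 1.73 (adjusted p = 0.0183 and 0.0286), but leaving out ileum pool 1, ileum pool 2 or colon pool 3 ended both calls, as did leaving out colon pool 1 for Gstm2. Neither of the other 2 probe sets of Gstm2 passed the test, with differences of -0.59 and 0.65 (adjusted p = 0.649 and 0.701).

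Of the 19 aldehyde dehydrogenases, 1 fell from jejunum to ileum, namely Aldh1a1, a retinaldehyde dehydrogenase (mean 4051 ± 534 to 1959 ± 399, log2 -1.06, adjusted p = 0.0255). Aldh1a1 returned to 4336 ± 839 in colon (adjusted p = 0.011). Aldh9a1, Aldh1b1 and Aldh1l1 were instead kept through the ileum and fell from ileum to colon. Compared with the small intestine, 6 of 19 were lower in colon and 1 higher, against 4.96% lower and 6.92% higher over all genes. Not all of the 6 were kept through the ileum. Aldh4a1 had means of 537.6 in jejunum and 212 in ileum, and Aldh1a3 of 125.7 in duodenum and 60.17 in jejunum. Neither of these 2 differences passed the test. Aldh9a1, which oxidises an intermediate of carnitine synthesis, measured 888.7, 778.6 and 855.5 in duodenum, 1044.6, 1240.1 and 703.3 in jejunum, 1538.6, 1145.2 and 1651.7 in ileum, and 251.4, 244.3 and 272.5 in colon. The colon pools lay below all others. Aldh9a1 fell by 2.41 ± 0.198 from ileum to colon (adjusted p = 1.51e-06), and its second probe set by 2.12.

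Aldh1b1, a mitochondrial acetaldehyde dehydrogenase, was the only one of the 89 genes that rose from duodenum to ileum, from 3998.1, 2651.3 and 3509.7 to 7302.7, 6107.8 and 6912.7 (log2 1.01, adjusted p = 0.016). Leaving out duodenum pool 2 or 3 or ileum pool 1 or 3 ended that call, as did blocking by 18S class. In colon it measured 1447.3, 1598.2 and 2283.9, below every small-intestinal pool, a fall of 1.95 ± 0.209 from ileum (adjusted p = 1.87e-05). Aldh1l1, which oxidises formyl-tetrahydrofolate, fell by 1.91 ± 0.213 from ileum to colon (adjusted p = 2.87e-05), from a mean of 2472 ± 246 to 648.8 ± 83.4 (SD, n = 3). Aldh2, the main mitochondrial acetaldehyde dehydrogenase, was 0.66 higher in colon than in ileum (adjusted p = 0.04), a call that ended when any single duodenum, ileum or colon sample was left out. It was also the 1 aldehyde dehydrogenase higher in colon than in the small intestine (log2 0.49, adjusted p = 0.037), a call lost in 11 of 25 alternatives, among them leaving out any colon pool, duodenum pool 2 or 3 or ileum pool 2 or 3.

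Sult2b1, known for cholesterol sulfation, belonged to the same pattern. It measured 841, 734.3 and 795 in duodenum, 990, 1776.8 and 1867.1 in jejunum, 1103.7, 1167 and 1209.4 in ileum, and 245.2, 218.6 and 224.5 in colon. The colon pools lay below all others, with a fall of 2.26 ± 0.2 from ileum (adjusted p = 3.35e-06). The sulfotransferases thus went both ways in colon, with Sult1a1, Sult1c2 and Sult1d1 higher than in the small intestine and Sult2b1 lower. The call of Sult1d1 (log2 1.11, adjusted p = 0.0449) ended without any 1 of 9 samples, the 3 duodenum and 3 colon pools among them. Sult1b1, the brightest sulfotransferase and one that acts on thyroid hormone, had means of 821 to 1483 and passed no test.

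Some further calls in colon against the small intestine ended when a single pool was left out. Those of Akr1a1 (log2 -0.50), Aldh16a1 (log2 -0.77), Aldh4a1 (log2 -1.76), Gsta2 (log2 -1.57), Gstp1 (log2 -0.55) and Akr1c13 (log2 0.65) each ended without 1 colon pool, namely pool 2 for Aldh16a1, pool 1 for Gsta2 and Gstp1, pool 3 for Aldh4a1 and Akr1c13, and either pool 2 or pool 3 for Akr1a1. Among falls from duodenum to ileum, that of Akr1b8 ended without duodenum pool 1 or ileum pool 3, and that of Ugt2a3 without ileum pool 3. That of Akr1c19 ended without duodenum pool 2 or 3 or ileum pool 1 or 2, and that of Gstm2 without any duodenum pool or ileum pool 1 or 2. Those of Ces1f and Ces1g ended without duodenum pool 1 or 3 or ileum pool 1 or 3. That of Ces1f also ended without ileum pool 2. Blocking by 18S class also ended the falls of Akr1b8, Ces1f, Ces1g and Ugt2a3 from duodenum to ileum, and the colon call of Akr1a1. Among falls from jejunum to ileum, those of Akr1c19 and Gsta4 ended without jejunum pool 2 or 3 or ileum pool 1 or 2, and that of Ugt2b5 without jejunum pool 1 or 2 or ileum pool 1 or 2.

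**Figure D4:**
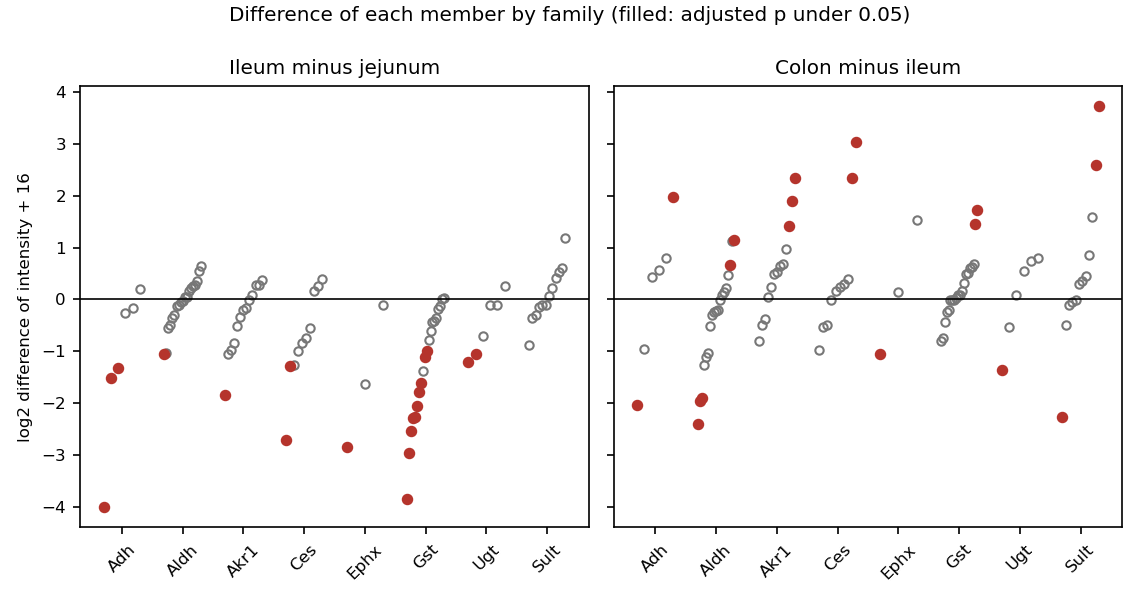
Log2 difference of intensity + 16 for each of the 89 genes by family, from jejunum to ileum (left) and from ileum to colon (right), with filled points for adjusted p below 0.05. On the left all filled points lie below 0 and 10 of the 20 are in the Gst column, and on the right filled points lie on both sides, with Sult1a1 highest and Aldh9a1 lowest.

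The other 44 genes passed no test, in any comparison or in the test of any difference. In 18 of them no segment mean rose above the median of the array set, among them Gsta1 (means of 2.033 to 2.667), Sult3a1 (1.533 to 2.567), Ces1c (17.87 to 39.17), Ugt2b1 (6.567 to 31.87) and Akr1c6 (18.53 to 41.17). These 5 were picked after their values were seen, to show how dim such genes were. The remaining 26 were brighter and held genes of nearly even level, such as Aldh3b1 (1108 to 1215), Gstm5 (856.6 to 1279) and Ugt2b34 (492.5 to 737.6). Missing the threshold does not show that they were equal in all segments. Genes named outside the rule for naming, among them Aldh1a1, Adh7, Aldh3b1 and Gstm5, were likewise picked with their values known.

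Conjugation needs activated cofactors, and of 12 measured genes that supply them 8 differed among the segments, against 13.7% of all genes. Papss2, which makes the activated sulfate for sulfotransferases, had means of 4662, 1038, 254.3 and 1139 from duodenum to colon. It fell by 2.21 from duodenum to jejunum (adjusted p = 0.000112), by a further 1.89 to ileum (adjusted p = 0.000509), and rose by 2.08 to colon (adjusted p = 6.07e-05). Papss1, the other synthase of this kind, went the opposite way and rose by 1.18 from jejunum to ileum (adjusted p = 0.00217, means of 590.8 and 1332). Ugdh, which makes the activated glucuronic acid, had means of 3555, 1446, 1325 and 4597 and rose by 1.81 from ileum to colon (adjusted p = 0.000407). Gsr, which regenerates glutathione, rose by 1.98 from jejunum to ileum (adjusted p = 5.88e-05). From jejunum to ileum the 12 genes included 2 rises and 2 falls, against 2.46% and 2.02% of all genes, with a median of 0.03.

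Of 31 measured other phase 1 and conjugating enzymes outside these families, 8 fell and 0 rose from jejunum to ileum in limma (12 and 3 at an unadjusted p below 0.05), against 2.02% falls and 2.46% rises over all genes, which is also the background for the lists that follow. The falls include Cbr1, a carbonyl reductase (log2 -1.39, adjusted p = 0.00239), Mgst3, a microsomal glutathione transferase (log2 -1.07, adjusted p = 0.00433) and Fmo5, a flavin monooxygenase (log2 -1.13, adjusted p = 0.00959). The median of the 31 was -0.28. Rdh7, a retinol dehydrogenase, was lower in colon than in the small intestine (log2 -4.14), and decreased by 3.32 from ileum to colon (adjusted p = 9.64e-07). Of 12 measured regulators of such genes, 1 rose and 2 fell from jejunum to ileum. The nuclear receptor Nr1i3, known to activate many conjugating enzymes, fell by 1.25 from a mean of 435.8 to 177.6 (adjusted p = 0.0197), Ppara fell by 0.94 (adjusted p = 0.0259), and Hnf4a rose by 1.41 (adjusted p = 0.022). Of 7 measured genes of retinoid handling, 2 fell and 1 rose from jejunum to ileum, with Rbp2, the intestinal retinol-binding protein, at means of 3740, 5658, 782.1 and 89.17 from duodenum to colon.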

How the data were processed

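Total RNA of 12 pooled samples, 3 per segment, gave 36 arrays, 1 per sample for each of sets A, B and C. The deposited tables give the intensity of each probe set without a log. The trimmed mean without the highest and lowest 2% was near 200.2 on every array, so the arrays had been scaled by the authors to a common mean; the software and genome build were not given in the sources used here. Log2(intensity + 16) was fitted with limma 3.58.1 (R 4.3.3), once per array set over its 12 arrays, with an intensity trend. The p-values were 2-sided and adjusted together over the 3 sets (Benjamini-Hochberg, threshold 0.05). The procedure was tested on simulated data. The offset shrinks differences of dim genes. Probe sets were named from the platform annotation, and those with several symbols were left out of the genes counted.

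The members and the gene lists were chosen with earlier results of these data known. Genes were named as the 10 largest called rises and falls of each comparison, the 2 brightest of each family, Adh1, Gstm6 and Ephx2, and from each further list the 4 genes of lowest adjusted p in a comparison. Array duodenum 3 of set C carries jejunum in another label and was kept by its title. The exocrine pancreas marker Cpa1 measured 13113.3 on this array, and 23863.1 and 14437.6 on the other duodenum arrays of set C. On the jejunum arrays it measured 26.6, 27.6 and 41.9, so the array had the Cpa1 level of duodenum. Replicate numbers were not used as pairs, since the labels do not say that they mark the same mice. Alternatives were the offset, scaling, low-value filter, variance trend, arrays fitted, replicate block, 18S class, probe set, adjustment and each sample left out. The number of arrays limits the precision.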

Additional observations from a re-analysis of the deposited data

How the results depend on the processing

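The count of genes called between duodenum and jejunum was 7 and depended on the processing. It was 4 with arrays centred on the median, 4 with only the arrays of the compared segments, 4 with the 18S class as a block, 3 in the 8 samples with high 18S signal, and 4 to 8 when 1 sample was left out, with 4 without duodenum pool 1 or jejunum pool 3. In the 8 samples with high 18S signal the counts were 5 in place of 20 from jejunum to ileum and 15 in place of 27 from duodenum to ileum; these samples hold 1 jejunum and 1 ileum pool. The other alternatives kept these counts, taken over both directions, within 1.5 times. Counted by direction, genes higher in colon than in the small intestine were 8, but 5 with median centring and 5 without colon pool 3, and rises from ileum to colon were 12, but 7 with the lower middle probe set. The single rises from duodenum to jejunum and to ileum became 0 or 2 under many alternatives. Among single genes, Sult1a1 reversed with its second probe set, to -0.02 from ileum to colon and -0.04 for colon against the small intestine; that probe set was dim in every segment. Of 88 called results of named genes, 43 kept their call under all alternatives.

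The fit with the replicate block called 6 genes from duodenum to jejunum, 19 from jejunum to ileum, 25 from duodenum to ileum, 18 from ileum to colon, 30 for colon against the small intestine and 42 for any difference. Deviations of samples with the same number correlated at over 0.1 in 5, 4 and 4 of 18 pairs on sets A, B and C. Samples with different numbers were not compared, so these values cannot show whether the numbers mark the same mice. Median centring moved the median of all genes from 0.08 to -0.13 between jejunum and ileum. No detection calls were used, so genes near the bottom of the scale have only a low value.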
